A study of Oryza sativa Indica Group with 27 samples.

Results

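The difference between the rice cultivars Pokkali and IR29 in their transcript response to 6 h of salt was taken from 12 of the 27 arrays of the study. Its members were chosen by label: 3 arrays each of Pokkali in salt for 6 h, unstressed Pokkali, IR29 in salt for 6 h and unstressed IR29. For each probe set the change of Pokkali from control to salt was set against the same change of IR29, and the result is called the response difference here. A positive value means that Pokkali ended higher, relative to its own control, than IR29 did. The plants were whole 7-day-old hydroponic seedlings of indica rice. Salt meant 200 mM sodium chloride at 28 °C for 6 h, and the controls stayed in growth medium for the same time. Pokkali is known as a salt-tolerant landrace and IR29 as a salt-susceptible breeding line, so the comparison asks which transcripts a tolerant and a susceptible cultivar regulate differently under the same salt. The cultivar Nonabokra and a 3 h time point also belong to the series. RNA came from whole seedlings, so shoots and roots were measured together, and fewer cells of a type and less RNA per cell cannot be told apart. How well each probe matches the sequence of each cultivar was not tested.

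Salt reaches a seedling as lack of water first and as sodium in the tissue later. Water deficit raises abscisic acid, which binds its receptors, holds back protein phosphatases 2C and so frees SnRK2 kinases to activate bZIP factors and their targets, among them the late embryogenesis abundant proteins and dehydrins that protect cells as they dry. A separate route runs through the AP2-domain DREB factors, and calcium signals act through calmodulin-like sensors and through CBL proteins with their CIPK kinases. Potassium and sodium transporters, aquaporins and nutrient carriers of the root set what enters the plant.

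Levels are array intensities. Changes are on the log2(intensity + 16) scale and carry ± the standard error that limma gives, so 1 is a doubling for a bright transcript and the change of a dim one is understated. A probe set passed at a limma p, adjusted by Benjamini-Hochberg over all probe sets, under 0.05, and it made a 2-fold call if the difference was also at least 1 in size. Of 57194 probe sets tested, 7323 (12.8%) passed, 3428 higher (5.99%) and 3895 lower (6.81%) in Pokkali. A 2-fold call was made for 1482 (2.59%), with 714 higher (1.25%) and 768 lower (1.34%). The median over all tested probe sets was 0.0031. Of the 18437 probe sets with at least 1 group mean of 100 or more, 5549 passed. Counts of passing list members below stand beside these shares, and no list was tested as a set. Most members of most lists had a group mean of 100 or more, so 5549 of 18437 is the nearer share for them. The weakest 2-fold calls lay at 1.0003 and -1.0003, and the closest passing probe sets outside lay at 0.9998 and -0.9997. Of the calls, 1074 were paired with 1 gene, and among genes with a name 102 were 2-fold higher and 92 lower.

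The median intensity of the 12 arrays lay between 7.09 and 7.77. Replicate 1 of IR29 in salt correlated across probe sets with its 2 fellows at r = 0.9957 and 0.9959, against 0.9990 between those 2, and without it there were 1471 2-fold calls, 1383 of them shared. Spiked poly-A transcripts were lower on the salt arrays of both cultivars, with changes of -1.40 in Pokkali and -1.39 in IR29. Their response difference was -0.016 ± 0.38. Hybridisation spikes differed by -0.40 ± 0.29 (SE), with changes of 0.20 in Pokkali and 0.60 in IR29. The ratios of 5′ to 3′ probe sets differed by -0.24 ± 0.34 for actin, 0.25 ± 0.23 for gapdh, -0.075 ± 0.15 for cyclophilin and 0.25 ± 0.16 for ubiquitin. The 18S rRNA control differed by 2.69 ± 1.51, with changes of -2.05 in Pokkali and -4.74 in IR29. Of the 7 root marker genes 4 passed, all higher, with a median of 0.28, and of the 13 leaf marker genes 3 passed higher and 1 lower, with a median of 0.0046. The summed intensity of the root markers ran from 2755 to 2953 in salt and 4995 to 5185 in control arrays of Pokkali, and from 1919 to 2409 in salt and 9087 to 10055 in control arrays of IR29. That of the leaf markers ran from 97874 to 103690 in salt and 102030 to 107150 in control arrays of Pokkali, and from 107070 to 111490 in salt and 96884 to 99945 in control arrays of IR29. Both kinds of marker were expressed in all 4 groups. SHR1, the weakest passing root marker, lost its call when single arrays were left out, and no leaf marker passed lower without replicate 1 of salted IR29. The part of these controls and markers in the results was not tested.

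In Pokkali alone, salt changed 22.3% of all probe sets, 10.1% upward and 12.1% downward, and 2.08% rose and 1.15% fell at least 2-fold. In IR29 alone 53.4% of all probe sets passed, 41.4% downward, yet 1.80% rose and 0.888% fell at least 2-fold. Most of the falls in IR29 were thus under 2-fold. The median intensity, with no scaling applied here, was 7.51, 7.23 and 7.24 on the salted IR29 arrays. On the unstressed IR29 arrays it was 7.77, 7.53 and 7.46. The part of this shift of dim values in the small falls was not tested. Calls came about in different ways. Of the 714 higher calls, Pokkali rose at least 2-fold while IR29 stayed within 2-fold in 359, and IR29 fell while Pokkali stayed within 2-fold in 154. Both cultivars moved at least 2-fold in opposite ways in 21 and in the same way in 69, and neither moved 2-fold in 111. Of the 768 lower calls, Pokkali fell alone in 281 and IR29 rose alone in 238, while 26 were opposite, 47 ran the same way and 176 had neither cultivar past 2-fold. The plot of the salt change in Pokkali against that in IR29 places the named genes.

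**Figure D1:**
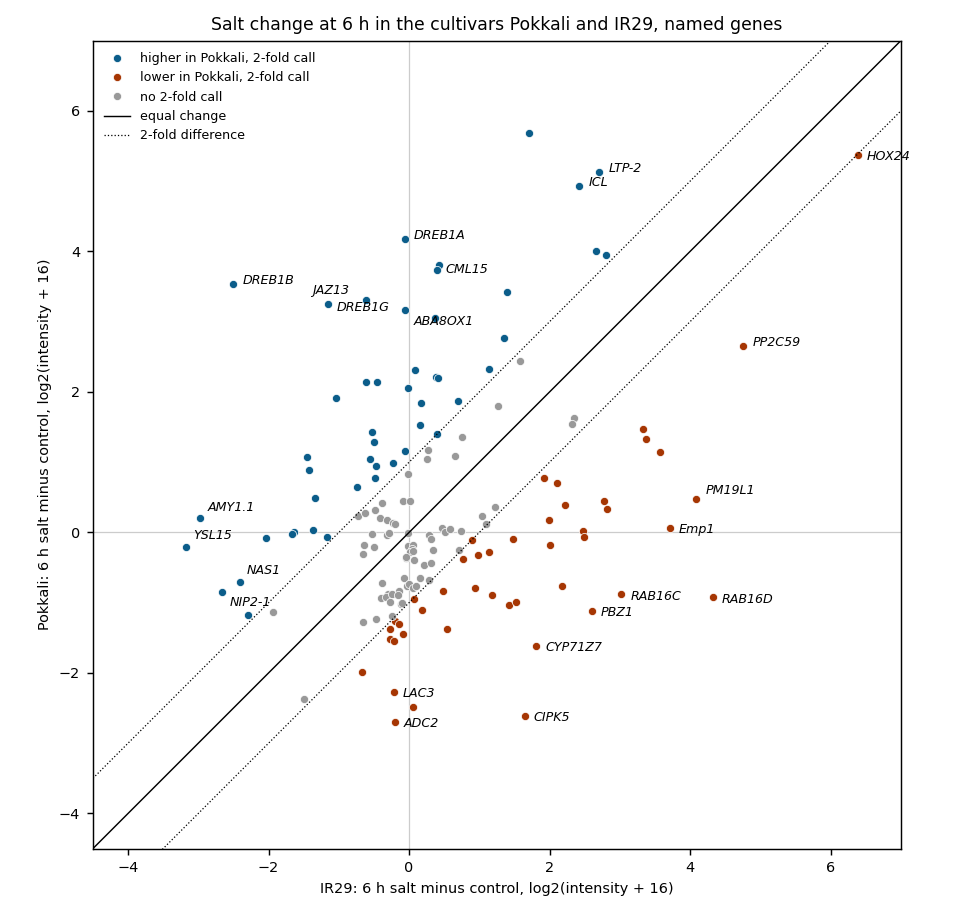
Salt change at 6 h of 162 named genes, as differences of log2(intensity + 16), in Pokkali (vertical axis) and IR29 (horizontal axis); each point is a gene, the solid line marks equal change and the dotted lines a 2-fold difference between cultivars. DREB1B stands at 3.53 in Pokkali and -2.50 in IR29, and RAB16D at -0.92 in Pokkali and 4.33 in IR29.

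Regulators of the DREB1 group led the transcripts raised by salt in Pokkali and not in IR29. They are AP2-domain factors that bind a drought-responsive promoter element, and in rice they are known from cold and salt responses. DREB1B (LOC4347618) read 267, 259.7 and 236 on the salt arrays and 8.15, 6.73 and 7.22 on the control arrays of Pokkali, and 9.34, 9.16 and 9.77 on the salt arrays and 122, 138 and 125 on the control arrays of IR29. It was thus near the array median in salted IR29 and in unstressed Pokkali, and high in the other pair of groups, with no overlap. Its change was 3.53 ± 0.081 in Pokkali and -2.50 ± 0.081 in IR29, a response difference of 6.03 ± 0.11 (limma, adjusted p = 1.2e-17), or 8.56 with a pseudocount of 1 and 3.54 with one of 64.

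DREB1G (LOC4330306) read 235, 233 and 189.7 on the salt arrays and 8.78, 8.62 and 8.35 on the control arrays of Pokkali, and 9.36, 8.63 and 8.70 on the salt arrays and 43.0, 43.0 and 32.7 on the control arrays of IR29. Only the salted Pokkali arrays exceeded 100, and the response difference was 4.40 ± 0.18 (adjusted p = 6.1e-13). DREB1A (LOC4347620), which lies 1 gene away from DREB1B in the RefSeq order, read 487, 421 and 412 on the salt arrays and 8.79, 9.60 and 9.15 on the control arrays of Pokkali, and 50.7, 64.6 and 38.5 on the salt arrays and 54.6, 60.3 and 46.1 on the control arrays of IR29. Salt left it without a passing change in IR29, at -0.064 ± 0.11 (adjusted p = 0.68), and raised it by 4.17 ± 0.11 in Pokkali. With pseudocounts of 64 and 1 the response difference of 4.24 ± 0.16 became 2.82 and 5.52 for DREB1A, and that of DREB1G 2.46 and 6.54.

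Of the 16 salt and drought regulators measured, 8 passed higher and 5 lower, with a median of 0.42, or 0.29 with the probe sets of each gene averaged. DREB2A, a dehydration-responsive relative, rose in both cultivars, by 1.80 ± 0.10 in Pokkali and 1.26 ± 0.10 in IR29, and differed by 0.54 ± 0.15 (adjusted p = 0.016). With a pseudocount of 1 this was 0.39 and did not pass. NAC6, a stress-induced NAC factor, rose by 2.44 ± 0.069 in Pokkali and 1.58 ± 0.069 in IR29. Its response difference of 0.86 ± 0.098 passed without reaching 2-fold, and its 3 probe sets ran from -0.019 to 0.86. Of 8 NAC factors 2 passed higher and 4 lower, with a median of -0.33. The lower count was 2 without replicate 1 of salted Pokkali, replicate 2 of unstressed Pokkali, replicate 2 of salted IR29 or replicate 1 of unstressed IR29. NAC2 differed by -0.86 and NAC45 by -0.72. HOX24, a homeodomain-leucine zipper factor, averaged 3441 ± 292 in salt and 67.0 ± 7.57 unstressed in Pokkali, and 2099.6 ± 371 in salt and 8.98 ± 1.27 unstressed in IR29 (SD, n = 3 each). The response difference of -1.01 ± 0.13 was -2.05 with a pseudocount of 1 and -0.14 with one of 64, where it no longer passed.

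All 3 passing members of the 6 measured WRKY factors were higher. WRKY71, known in rice as a repressor of gibberellin signalling in the grain, read 2821, 3049 and 2752 on the salt arrays and 502, 634 and 576 on the control arrays of Pokkali, and 1563, 2025 and 1800.5 on the salt arrays and 1631, 1803 and 1630 on the control arrays of IR29. Salt brought Pokkali above the level that IR29 held throughout, and the response difference was 2.22 ± 0.12 (adjusted p = 7.1e-11). WRKY24 differed by 1.79 ± 0.11. WRKY76 differed by 1.64 ± 0.20, with a change of -1.66 ± 0.14 in IR29 beside a change of -0.021 ± 0.14 in Pokkali that did not pass.

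Jasmonate repressors of the TIFY/JAZ family divided, with 5 of 17 higher and 4 lower. JAZ13 (LOC4348531) read 940.2, 1008 and 648 on the salt arrays and 54.1, 68.4 and 96.5 on the control arrays of Pokkali, and 511, 531 and 566 on the salt arrays and 883, 862 and 746 on the control arrays of IR29. Unstressed Pokkali was the low group, and the other 3 groups lay within a 2-fold band. Its response difference was 3.92 ± 0.26 (adjusted p = 7.5e-10), and at 6 h of salt the cultivars differed by 0.65 ± 0.18. JAZ9 and JAZ10, with 1 gene between them in the RefSeq order, differed by 1.97 ± 0.14 and 1.79 ± 0.14, both raised in Pokkali (by 1.43 and 1.29) and lowered in IR29 (by -0.53 and -0.50). JAZ8 fell in both, by -1.52 ± 0.069 in Pokkali and -0.27 ± 0.069 in IR29, a response difference of -1.26 ± 0.097.

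Calcium sensors and their kinases made up the longest list, with 20 of 78 higher and 15 lower, 9 and 2 of them 2-fold. The median over the list was 0.0075. CML15 (LOC4338633), a calmodulin-like calcium sensor, read 1218, 1245 and 1175 on the salt arrays and 77.0, 75.6 and 75.3 on the control arrays of Pokkali, and 421, 399.6 and 417 on the salt arrays and 299.9, 325 and 307 on the control arrays of IR29. Salted Pokkali was the highest group and unstressed Pokkali the lowest, without overlap. CML15 differed by 3.35 ± 0.071 (adjusted p = 4.6e-17). CML14 differed by 2.60 ± 0.11, and CIPK3, a CBL-interacting kinase, by 2.07 ± 0.30.

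The enzyme ABA8OX1 (LOC9269675), an abscisic acid 8′-hydroxylase that starts the breakdown of the hormone, read 3601, 3742 and 3389.9 on the salt arrays and 378, 388 and 389 on the control arrays of Pokkali, and 321, 327 and 304 on the salt arrays and 336, 332 and 328 on the control arrays of IR29. The other 9 arrays lay between 304 and 389. The change was 3.16 ± 0.065 in Pokkali and -0.062 ± 0.065 in IR29 (adjusted p = 0.46), a response difference of 3.22 ± 0.092 (adjusted p = 3.7e-15). ABA8OX2, a second enzyme of the same step, averaged 517 ± 15.4 in salt and 476 ± 6.12 unstressed in Pokkali, against 382 ± 24.4 and 171 ± 16.0 in IR29. Here IR29 rose by 1.09 ± 0.063, Pokkali changed by 0.11 ± 0.063 (adjusted p = 0.18), and the response difference was -0.98 ± 0.089.

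Non-symbiotic haemoglobins, which turn over nitric oxide and are known from oxygen shortage, also rose mainly in Pokkali. NSHB2 read 1091, 1313 and 1124 on the salt arrays and 75.8, 71.1 and 60.0 on the control arrays of Pokkali, and 284, 218 and 245 on the salt arrays and 195, 175 and 170.5 on the control arrays of IR29. The salted Pokkali arrays stood above all others, with a response difference of 3.38 ± 0.15 (adjusted p = 3.2e-12), and NSHB1 differed by 2.68 ± 0.12, with its 3 probe sets from 1.35 to 2.68. Of the genes given here, TPP7, NSHB1, JAZ10, PPDK2, ABA8OX2, AKT1, NIP2-2, AMT3-2, SAPK9 and TIP3-1 are read by probe sets whose suffix marks probes shared with other transcripts. TPP7, a trehalose-6-phosphate phosphatase, read 2300.5, 2421 and 2367 on the salt arrays and 511, 532 and 526 on the control arrays of Pokkali, and 607, 561 and 599 on the salt arrays and 947, 849 and 922 on the control arrays of IR29. It rose by 2.14 ± 0.051 in Pokkali and fell by 0.61 in IR29, a response difference of 2.75 ± 0.072 (adjusted p = 1.3e-15), and TPP1 of the same family differed by 1.82 ± 0.10.

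Several other genes rose in both cultivars and further in Pokkali. ICL, the isocitrate lyase of the glyoxylate cycle, read 3365, 3542 and 3429.6 on the salt arrays and 97.2, 91.5 and 104 on the control arrays of Pokkali, and 1349, 1484 and 1546 on the salt arrays and 279.9, 256 and 240.2 on the control arrays of IR29, a response difference of 2.51 ± 0.094 (adjusted p = 2.1e-13). PPDK2, a pyruvate phosphate dikinase, rose by 3.42 ± 0.079 in Pokkali and 1.40 ± 0.079 in IR29. Salt raised the lipid transfer protein gene LTP-2 by 5.13 ± 0.12 in Pokkali and 2.71 ± 0.12 in IR29. Its response difference of 2.42 ± 0.18 was 1.54 with a pseudocount of 1 and 3.00 with one of 64. For the kinase CDKE-1, the probe set of higher mean rose by 5.68 ± 0.091 in Pokkali and 1.71 ± 0.091 in IR29, while its other probe set gave a response difference of -0.073 against 3.97 ± 0.13 here, so the gene's own response is unsettled. The salt-induced mannose-binding lectin salT read 8456, 8735 and 8097 on the salt arrays and 1908, 1733 and 1782 on the control arrays of Pokkali, and 8818, 8697 and 8579 on the salt arrays and 6695, 6390 and 6825 on the control arrays of IR29. Salted arrays of both cultivars lay between 8097 and 8818, and the response difference of 1.82 ± 0.097 came with an unstressed level difference of -1.87 ± 0.069.

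**Figure D2:**
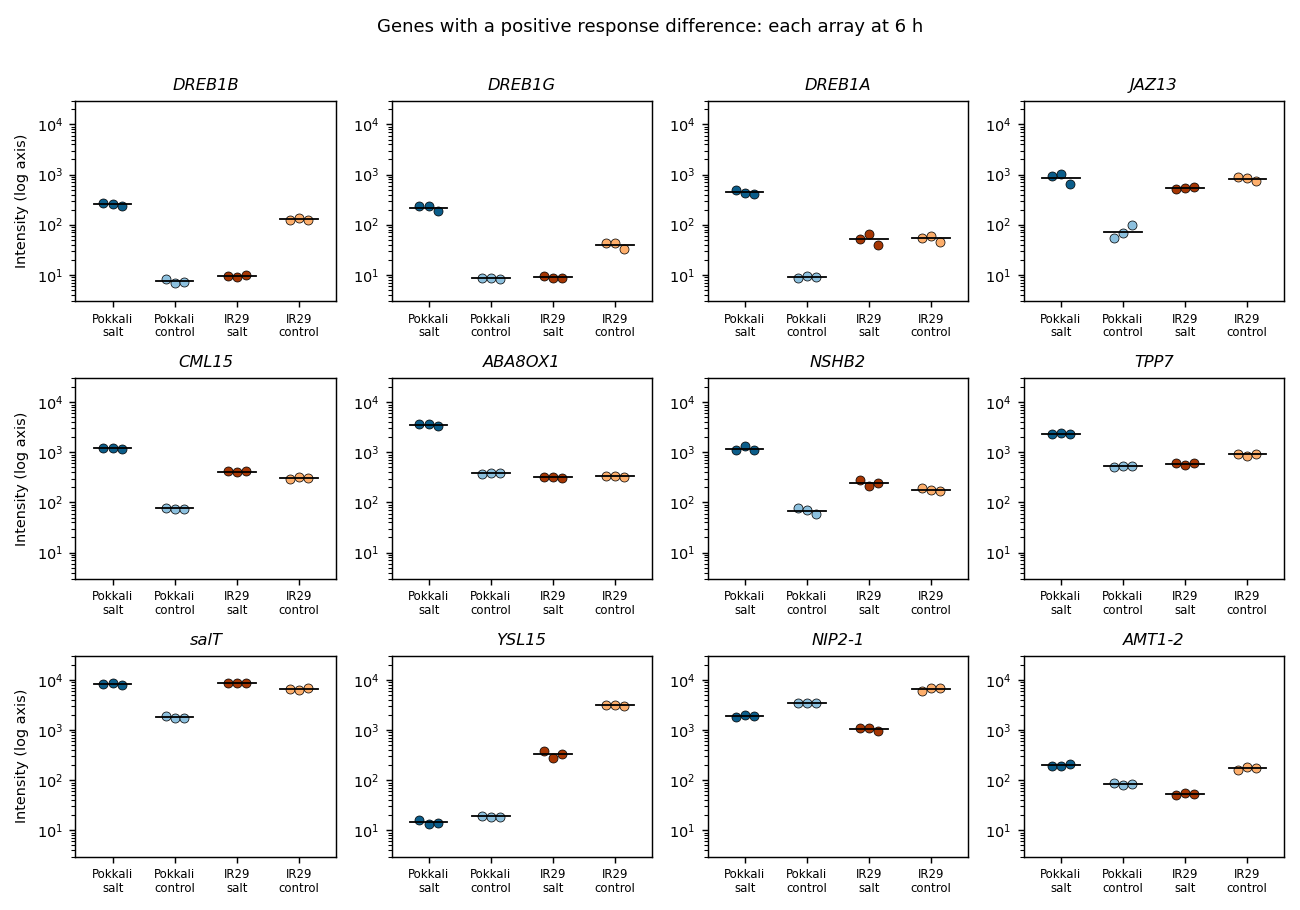
Intensity (log axis) on each of 3 arrays a group, with the group mean as a bar, for 12 genes with a positive response difference at 6 h. In the DREB1 genes, CML15, ABA8OX1, NSHB2 and TPP7 the salted Pokkali arrays are the highest, whereas YSL15 and NIP2-1 are highest in unstressed IR29.

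A second set was higher with a fall in IR29 from a high unstressed level. Iron acquisition in grasses uses nicotianamine as the precursor of the secreted chelator, and YSL15 imports its iron complex into the root. YSL15 (LOC9268232) read 15.9, 13.4 and 14.1 on the salt arrays and 19.5, 18.8 and 18.9 on the control arrays of Pokkali, and 387, 283 and 335 on the salt arrays and 3229, 3235 and 2966 on the control arrays of IR29. Pokkali arrays of both kinds stayed under 20, near the array medians, and salted IR29 lay between them and unstressed IR29. The response difference was 2.98 ± 0.15 (adjusted p = 1.3e-11), with -3.18 ± 0.10 in IR29 and -0.20 ± 0.10 in Pokkali (adjusted p = 0.16).

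The nicotianamine synthases NAS1 and NAS2, which are neighbours in the RefSeq order, were also dim in Pokkali and bright in IR29. Their response differences thus came mainly from the change in IR29. NAS1 was near the array median in salted Pokkali, so its fall there is understated on this scale. NAS1 averaged 8.29 ± 0.612 in salt and 23.7 ± 5.53 unstressed in Pokkali, against 1952 ± 200.5 and 10404 ± 264 in IR29. Its response difference was 1.71 ± 0.14 (adjusted p = 2.6e-08), or 1.03 with a pseudocount of 1 and 2.10 with one of 64. NAS2 averaged 45.5 ± 0.802 and 44.0 ± 3.93 in Pokkali, against 4497 ± 289 and 11578 ± 151 in IR29, a response difference of 1.40 ± 0.19. The metal transporter Nramp1 was likewise dim in Pokkali, at 33.4 ± 2.59 in salt and 36.9 ± 1.81 unstressed. In IR29 it was higher in salt, at 6114 ± 350.1, than unstressed, at 2176 ± 114, so its response difference was -1.58 ± 0.087. The summed root markers were also lower in salted than in unstressed IR29, and their part in these values was not tested. Most of that sum is NIP2-1, at 1046 in salted and 6701 in unstressed IR29, and the median change of the 7 markers was -0.038 in Pokkali and -0.32 in IR29. Over all 30 genes of iron uptake and nicotianamine, 8 passed higher and 4 lower, with a median of 0.0093.

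Genes of silicon transport and nitrogen assimilation followed. NIP2-1, the Lsi1 silicon channel, read 1846, 1997 and 1916 on the salt arrays and 3421, 3422 and 3523 on the control arrays of Pokkali, and 1107, 1086 and 944 on the salt arrays and 6151, 6933 and 7019.8 on the control arrays of IR29. It fell in both cultivars, by 0.84 in Pokkali and by 2.66 in IR29, a response difference of 1.82 ± 0.097 (adjusted p = 3.9e-11). Lsi2, the silicon exporter that works with it, differed by 1.11 ± 0.17, and NIP2-2, which unloads silicon from the xylem, by -0.88 ± 0.12. NIP2-1 and Lsi2 are also 2 of the 4 passing root markers.

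AMT1-2, an ammonium importer, read 194, 190.1 and 208 on the salt arrays and 88.9, 80.4 and 85.9 on the control arrays of Pokkali, and 51.9, 55.2 and 53.5 on the salt arrays and 162, 184 and 177 on the control arrays of IR29. The cultivars moved in opposite ways, by 1.08 ± 0.084 in Pokkali and -1.45 ± 0.084 in IR29, a response difference of 2.53 ± 0.12 (adjusted p = 6.2e-12). GLN1-2, a cytosolic glutamine synthetase that assimilates ammonium, averaged 5712 ± 411 in salt and 3071 ± 129 unstressed in Pokkali, against 2605 ± 337 and 6968 ± 174 in IR29. The changes gave a response difference of 2.31 ± 0.11. The nitrate reductase NIA1 differed by 1.22 ± 0.074, from a rise of 1.16 ± 0.052 in Pokkali. The ammonium transporter AMT3-2 differed by -1.40 ± 0.17, from a larger rise in IR29. In the whole nitrogen list 4 of 16 passed higher and 5 lower.

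The wall-loosening expansin EXPA3 averaged 481 ± 11.9 in salt and 507 ± 11.0 unstressed in Pokkali, against 34.2 ± 6.75 and 188 ± 12.8 in IR29, a response difference of 1.96 ± 0.16 (adjusted p = 1.7e-08). EXPA1 differed the other way, by -1.32, and of 29 expansins 7 passed higher and 6 lower, with a median of -0.022. The germin-like protein GLP2 read 108, 125 and 117 on the salt arrays and 20.9, 22.6 and 14.7 on the control arrays of Pokkali, and 695, 575 and 624 on the salt arrays and 1278, 1249 and 1416 on the control arrays of IR29. It rose in Pokkali by 1.91 ± 0.11 and changed in IR29 by -1.04 ± 0.11, and IR29 stayed the higher cultivar throughout. Its response difference was 2.95 ± 0.16 here and 1.43 on its other probe set.

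Among the large negative differences were abscisic acid and drying genes that salt raised in IR29 and that unstressed Pokkali already held high. RAB16D (LOC4350451), a dehydrin, read 3542, 3671 and 3461 on the salt arrays and 7022, 6961 and 6310.4 on the control arrays of Pokkali, and 1687, 1648 and 1458 on the salt arrays and 65.2, 63.4 and 64.3 on the control arrays of IR29. Unstressed Pokkali was the highest group and unstressed IR29 the lowest, with no overlap. Salt changed it by -0.92 ± 0.065 in Pokkali and 4.33 ± 0.065 in IR29, a response difference of -5.25 ± 0.091 (limma, adjusted p = 2.8e-18). The level difference between the cultivars was 1.15 ± 0.065 at 6 h of salt and 6.40 ± 0.065 unstressed.

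Its neighbour RAB16C read 1446, 1509 and 1280.5 on the salt arrays and 2375, 2582 and 2889.6 on the control arrays of Pokkali, and 1302, 1034 and 1003 on the salt arrays and 127, 115 and 124 on the control arrays of IR29, a response difference of -3.90 ± 0.13 (adjusted p = 4.6e-14). The 4 RAB16 genes are closely related in sequence, and how far their probe sets share signal was not tested. Emp1, an Em protein of the embryo, read 414, 509.9 and 471 on the salt arrays and 390.2, 484 and 453 on the control arrays of Pokkali, and 397, 352 and 317 on the salt arrays and 10.3, 8.52 and 19.0 on the control arrays of IR29. Only unstressed IR29 was dim, and the response difference was -3.64 ± 0.18, or -4.71 with a pseudocount of 1 and -2.39 with one of 64. All 8 late embryogenesis abundant and dehydrin genes measured passed lower, 7 of them 2-fold, with a median of -2.26. Over all probe sets 6.81% passed lower. All 8 genes had a group mean of 100 or more, and of the 18437 such probe sets 5549 passed in either direction. RAB21, the exception under 2-fold, rose in both cultivars, by 1.54 ± 0.067 in Pokkali and 2.32 ± 0.067 in IR29, and stayed higher in Pokkali at 6 h of salt by 1.66 ± 0.067. Dehydrins rab25, Dhn1 and RAB16B differed by -2.33, -2.19 and -2.03, and LEA19 by -1.89.

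The membrane protein gene PM19L1 read 3774, 3749 and 3675 on the salt arrays and 2619, 2619 and 2797 on the control arrays of Pokkali, and 1112, 969 and 1143 on the salt arrays and 43.1, 62.1 and 40.6 on the control arrays of IR29. Salt raised it by 4.09 ± 0.11 in IR29 and by 0.48 ± 0.11 in Pokkali, and Pokkali stayed higher at 6 h by 1.78 ± 0.11. Its response difference was -3.61 ± 0.16, while its other probe set gave 0.0017, so the gene's own response is unsettled. PSY3, a phytoene synthase of the carotenoid path from which abscisic acid is made, read 985, 1073 and 910.2 on the salt arrays and 948, 1034 and 1144 on the control arrays of Pokkali, and 745, 775 and 847 on the salt arrays and 136, 128 and 116 on the control arrays of IR29. Pokkali did not pass at -0.072 ± 0.076, IR29 rose by 2.49 ± 0.076, and the response difference was -2.57 ± 0.11 (adjusted p = 1.2e-12). The transcription factor BZIP23, which mediates abscisic acid responses in rice, averaged 3927 ± 57.6 in salt and 3004 ± 131 unstressed in Pokkali, against 3989 ± 168 and 839 ± 1.36 in IR29. At 6 h of salt the cultivars differed by -0.022 ± 0.059 (95% interval -0.15 to 0.10), and the response difference was -1.84 ± 0.083.

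Protein phosphatases 2C, among them the ones that abscisic acid receptors hold back, passed higher in 9 and lower in 11 of 55 genes, with 2 and 7 of these 2-fold. PP2C68 read 1726, 1687 and 1536 on the salt arrays and 748, 672 and 794 on the control arrays of Pokkali, and 1437, 1431 and 1324 on the salt arrays and 87.1, 112 and 110.4 on the control arrays of IR29. Every salted Pokkali array lay above every salted IR29 array, and unstressed IR29 lay lowest. It rose by 1.14 ± 0.069 in Pokkali and 3.57 ± 0.069 in IR29, a response difference of -2.43 ± 0.098 (adjusted p = 6.4e-13). PP2C09 rose only in IR29, by 2.48 ± 0.078, beside 0.022 ± 0.078 in Pokkali (adjusted p = 0.85), a difference of -2.46 ± 0.11. PP2C30 and PP2C59 rose in both cultivars and differed by -2.05 ± 0.12 and -2.11 ± 0.097, and PP2C59 was -3.03 with a pseudocount of 1 and -1.11 with one of 64. In the other direction PP2C51 and PP2C32 differed by 1.73 and 1.67.

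Heat shock factors passed lower in 11 of 20 and higher in 2, beside 6.81% and 5.99% of all probe sets. Of the 20, 16 had a group mean of 100 or more. Their median was -0.50, or -0.28 with the probe sets of each gene averaged. HSFC2A read 394, 372 and 396 on the salt arrays and 454, 415 and 448 on the control arrays of Pokkali, and 215, 252 and 287 on the salt arrays and 49.5, 58.5 and 43.6 on the control arrays of IR29. It rose by 2.00 ± 0.084 in IR29 and changed by -0.17 ± 0.084 in Pokkali (adjusted p = 0.14), a response difference of -2.18 ± 0.12 (adjusted p = 5.9e-11). HSFA6B differed by -1.82 ± 0.099 and HSFA4D by -1.91 ± 0.11, and HSFA2C, the 2-fold exception in the other direction, by 1.19 ± 0.10 on this probe set and -0.79 on its other one. The heat shock proteins did not share the count, with 3 of 25 higher and 5 lower and a median of -0.012. Among SnRK2 kinases and abscisic acid receptors, 1 of 11 passed higher and 3 lower, none of them 2-fold, and SAPK6 and SAPK9 differed by -0.87 ± 0.10 and -0.95 ± 0.079. PDHE1-A (LOC4340640), annotated by name as a subunit of pyruvate dehydrogenase, averaged 481 ± 28.9 in salt and 377 ± 14.2 unstressed in Pokkali, against 165 ± 10.6 and 9.81 ± 0.269 in IR29, a response difference of -2.48 ± 0.12.

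**Figure D3:**
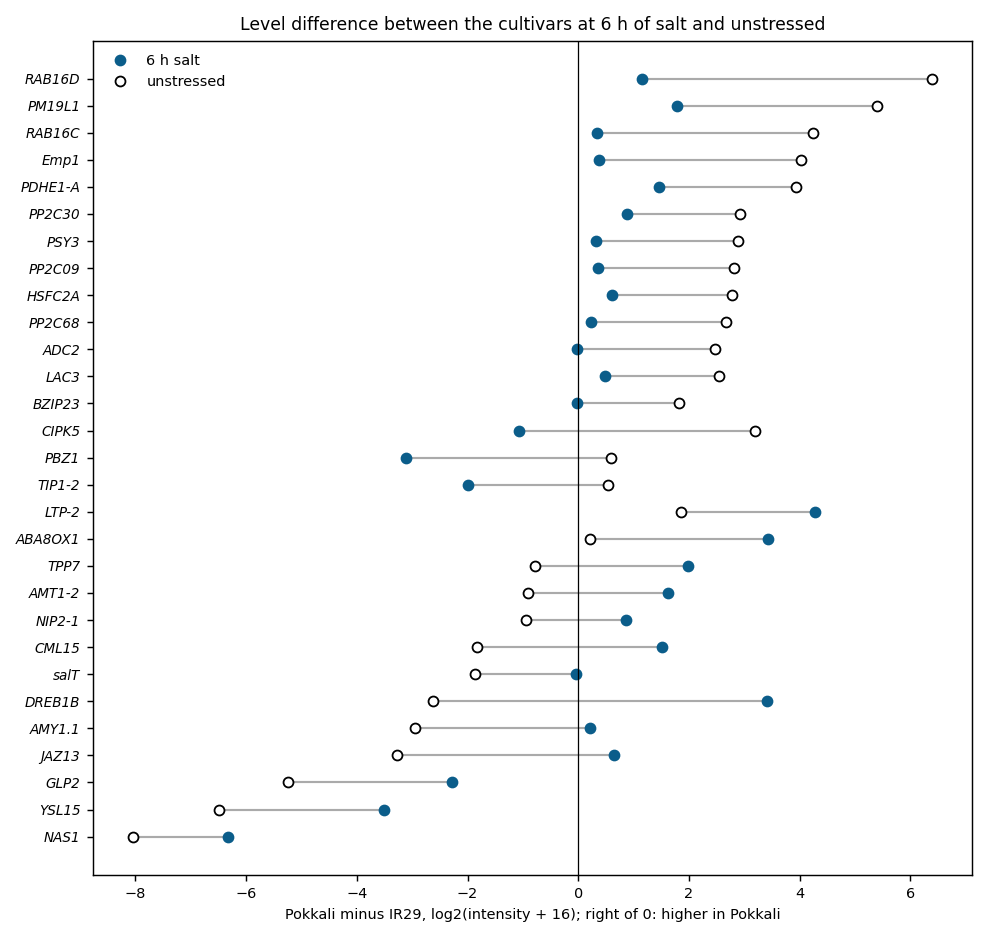
Level difference between Pokkali and IR29, as log2(intensity + 16), at 6 h of salt (filled) and unstressed (open) for named genes. RAB16D lies at 1.15 in salt and 6.40 unstressed, and DREB1B at 3.41 in salt and -2.62 unstressed.

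The level difference between the cultivars was smaller in salt than unstressed for 937 of the 1482 2-fold calls (63.2%), among them 576 of 768 lower calls (75%) and 361 of 714 higher calls (50.6%). Over all tested probe sets this share was 70.1%, and over the 18437 with a group mean of 100 or more it was 57.6%. Both differences use the same control arrays as the response difference, so the share describes the calls and tests nothing. The plot of level differences shows named genes on both sides of 0.

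A further group rose in IR29 and fell in Pokkali. PBZ1 (LOC4352491), a PR-10 protein induced by pathogens and probenazole, read 643, 653 and 669 on the salt arrays and 1579, 1414 and 1318 on the control arrays of Pokkali, and 5561, 6116 and 5764 on the salt arrays and 947, 913 and 972 on the control arrays of IR29. Salted IR29 was the highest group and salted Pokkali the lowest. The change was -1.11 ± 0.069 in Pokkali and 2.60 ± 0.069 in IR29, a response difference of -3.71 ± 0.098 (adjusted p = 1.3e-15). CYP71Z7, a cytochrome P450 of diterpenoid synthesis, read 23.8, 20.3 and 25.0 on the salt arrays and 100, 105 and 106 on the control arrays of Pokkali, and 153, 163 and 149.9 on the salt arrays and 31.8, 32.6 and 34.0 on the control arrays of IR29, a response difference of -3.43 ± 0.10 (adjusted p = 5.8e-15), or -4.34 with a pseudocount of 1 and -2.13 with one of 64.

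CYP71Z7 lies beside CYP71Z6 and the diterpene synthase KSL7 in the RefSeq order, and these differed by -1.29 ± 0.15 and -0.80 ± 0.088. In the list of diterpenoid phytoalexin synthesis 2 of 16 passed higher and 5 lower, and the median was -0.077. The pathogen-induced esterase Pir7b averaged 223 ± 5.89 in salt and 388 ± 18.6 unstressed in Pokkali, against 933 ± 119.8 and 192 ± 7.48 in IR29, a response difference of -2.94 ± 0.14. LOX9, a lipoxygenase, averaged 27.9 ± 1.38 and 74.2 ± 10.6 in Pokkali, against 112 ± 11.2 and 31.5 ± 0.521 in IR29. Its response difference was -2.46 ± 0.13, or -3.17 with a pseudocount of 1 and -1.47 with one of 64, and its 3 probe sets ran from -2.46 to 0.0078. Its neighbour LOX2.1 differed by -1.73 ± 0.20. Over jasmonate synthesis 3 of 19 genes passed higher and 8 lower. Of the 19, 14 had a group mean of 100 or more, and 5549 of all 18437 such probe sets passed in either direction.

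CIPK5, a kinase regulated by CBL calcium sensors, read 67.0, 66.9 and 57.9 on the salt arrays and 445, 508 and 462 on the control arrays of Pokkali, and 164, 156 and 137 on the salt arrays and 25.4, 49.1 and 40.8 on the control arrays of IR29. Unstressed Pokkali stood highest and unstressed IR29 lowest, and the order of the cultivars was opposite in salt. It changed by -2.61 ± 0.11 in Pokkali and 1.65 ± 0.11 in IR29, a response difference of -4.26 ± 0.15 (adjusted p = 1.1e-13). Aquaporins passed lower in 10 of 25 and higher in 3. Of the 25, 20 had a group mean of 100 or more, and 5549 of all 18437 such probe sets passed in either direction. The tonoplast aquaporin TIP1-2 read 679, 672 and 614 on the salt arrays and 1349, 1332 and 1265 on the control arrays of Pokkali, and 2901, 2354 and 2700.5 on the salt arrays and 906, 897 and 918 on the control arrays of IR29, a response difference of -2.52 ± 0.18 (adjusted p = 3.2e-09). The plasma membrane aquaporin PIP2-5 differed by -2.08 ± 0.11, with -0.89 ± 0.079 in Pokkali and 1.19 ± 0.079 in IR29. Higher in Pokkali were the silicon channel NIP2-1 and TIP3-1, a seed-type vacuolar aquaporin that rose in both cultivars and differed by 1.35 ± 0.20.

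Other negative differences came from falls in Pokkali. ADC2, an arginine decarboxylase of polyamine synthesis, read 112, 105 and 98.4 on the salt arrays and 792, 784 and 731 on the control arrays of Pokkali, and 129, 97.5 and 98.7 on the salt arrays and 133, 128 and 119 on the control arrays of IR29. Unstressed Pokkali stood alone above 700, and at 6 h of salt the cultivars differed by -0.03 ± 0.10 (95% interval -0.25 to 0.19). The response difference was -2.49 ± 0.15 (adjusted p = 1.5e-10), with a change of -0.20 ± 0.10 in IR29 (adjusted p = 0.1). ILL3, by its name an amidohydrolase of conjugated auxin, read 54.0, 44.2 and 56.9 on the salt arrays and 358, 344 and 390.1 on the control arrays of Pokkali, and 3.73, 6.07 and 4.08 on the salt arrays and 4.14, 3.76 and 3.74 on the control arrays of IR29. IR29 arrays lay under 7 throughout, below the array medians, so any change there could hardly be read, and Pokkali changed by -2.49 ± 0.063.

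Of 27 phenylpropanoid and lignin genes 12 passed lower, 6 of them 2-fold, and 3 higher. Of the 27, 21 had a group mean of 100 or more, and 5549 of all 18437 such probe sets passed in either direction. Laccases, which polymerise lignin precursors, were among the lower ones. LAC3 read 364, 414 and 419 on the salt arrays and 1999.5, 1903 and 2042 on the control arrays of Pokkali, and 298, 267 and 273 on the salt arrays and 323, 335 and 321 on the control arrays of IR29. It fell in Pokkali by 2.27 and in IR29 by 0.22, a response difference of -2.05 ± 0.09 (adjusted p = 2.2e-12). LAC20 differed by -1.33 ± 0.12, LAC24 by -1.15 ± 0.10 and LAC10 by -1.14 ± 0.12. CESA4 and CESA7, cellulose synthases of the secondary wall, fell in Pokkali by 0.95 and 1.01 and differed by -1.02 ± 0.10 and -0.91 ± 0.12. Auxin response genes passed lower in 18 of 58 and higher in 4, none of them 2-fold, with IAA25 at -0.95 ± 0.12 and ARF23 at -0.85 ± 0.068. Of the 58, 46 had a group mean of 100 or more.

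**Figure D4:**
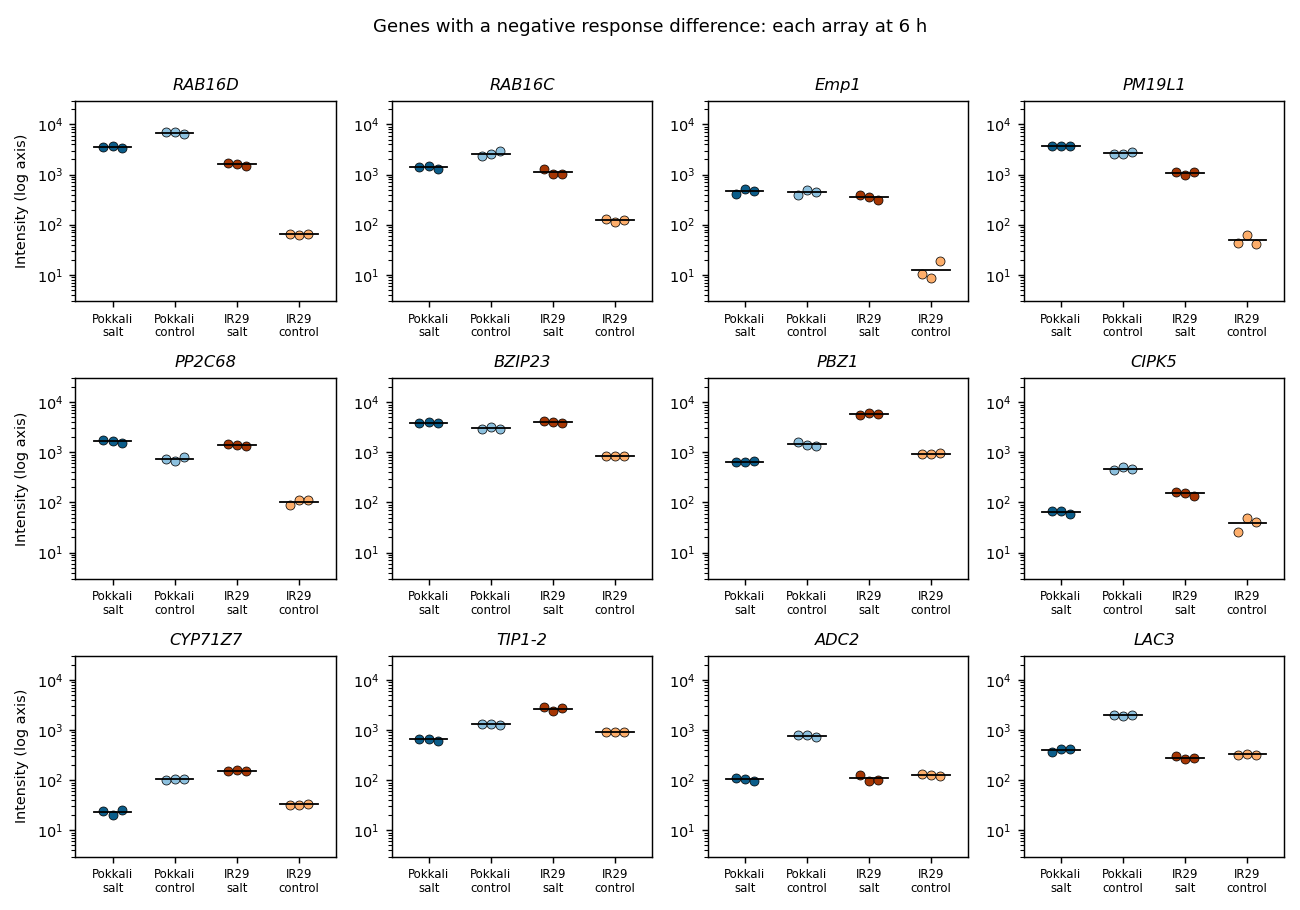
Intensity (log axis) on each of 3 arrays a group, with the group mean as a bar, for 12 genes with a negative response difference at 6 h. Unstressed IR29 is the lowest group for RAB16D, RAB16C, Emp1, PM19L1, PP2C68 and BZIP23, and unstressed Pokkali the highest for ADC2 and LAC3.

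Of the ion transporters known from salt tolerance, those with a name here mostly differed by less than 2-fold. SOS1 and NHX1 were also looked for but not found by name, so they are not covered. The sodium transport list held only HKT1;5. HKT1;5, which withdraws sodium from the xylem, averaged 24.3 ± 3.50 in salt and 55.8 ± 9.21 unstressed in Pokkali, against 16.4 ± 1.01 and 19.9 ± 2.17 in IR29. It fell in Pokkali by 0.83, and the response difference was -0.68 ± 0.12 (adjusted p = 0.0003), or -0.90 with a pseudocount of 1 and -0.38 with one of 64. AKT1, an inward potassium channel of the root, fell in both cultivars and differed by 0.80 ± 0.089. Of 27 potassium transport genes 6 passed lower and 2 higher, or 1 higher with some single arrays left out. HAK17 was the only one of them at 2-fold in this fit, with a fall of 1.99 in Pokkali and 0.67 in IR29 and a response difference of -1.32 ± 0.24.

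The proline synthesis gene P5CS1 rose in both cultivars, by 1.08 ± 0.087 in Pokkali and 0.66 ± 0.087 in IR29. The response difference of 0.43 ± 0.12 (adjusted p = 0.024) lost its call without replicate 1 of salted IR29, at 0.37 (adjusted p = 0.065), and without 3 other single arrays. Antioxidant enzymes passed in 2 of 16, both lower, and in 1 to 3 with single arrays left out. All 16 had a group mean of 100 or more. Of the 18437 such probe sets 5549 passed, against 12.8% of all probe sets. Of 8 photosynthesis genes 1 passed, LHCP, at -0.17 ± 0.053, and it lost its call without single arrays, replicate 1 of salted IR29 among them. Of 22 cytosolic ribosomal protein genes 6 passed, all higher, with a list median of 0.13 (1 also passed lower without replicate 3 of salted or of unstressed IR29), and RPS10-1 differed by 0.48 ± 0.084. Tubulins passed lower in 4 of 10, and core histones in 3 of 6, or in 1 without replicate 1 of salted IR29. All members of the ribosomal protein, tubulin and histone lists had a group mean of 100 or more, where 5549 of 18437 probe sets passed.

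**Figure D5:**
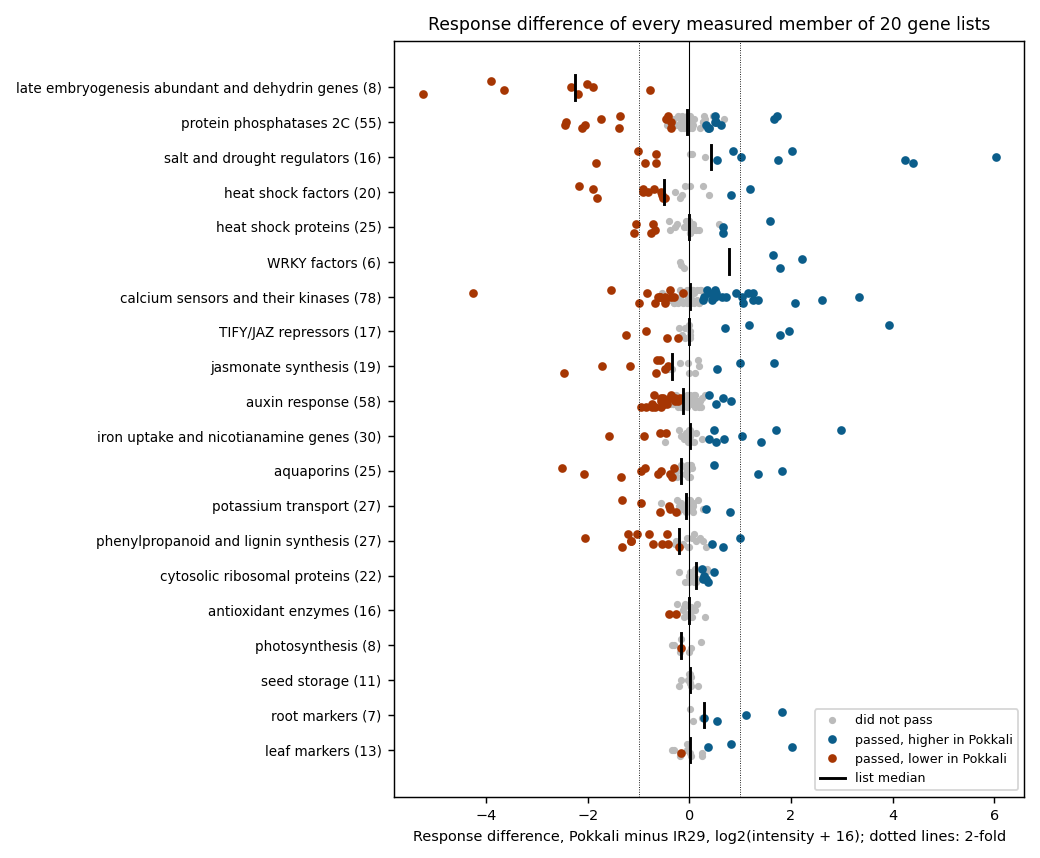
Response difference (Pokkali minus IR29, log2 of intensity + 16) of every measured member of 20 gene lists, with the number of members in brackets; coloured points passed, grey points did not, and the bar is the list's median. All 8 late embryogenesis abundant and dehydrin genes lie below 0, at a median of -2.26, and most other lists lie on both sides.

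The response difference at 3 h uses the same 6 control arrays, and 46.9% of all probe sets passed there, with no limit on size. The titles, stress labels and treatment protocol of the 3 h samples give salt, whereas their descriptions name drought, and they are taken as salt here. Their controls had stayed in medium for 6 h, not 3 h. For DREB1B it was 4.29 ± 0.11, for ABA8OX1 3.10 ± 0.092, for RAB16D -3.07 ± 0.091 and for PBZ1 -5.92 ± 0.098, each with the sign it had at 6 h. AMY1.1, an alpha-amylase of starch breakdown, had the opposite sign. It averaged 6.79 ± 0.753 unstressed, 30.5 ± 4.93 at 3 h and 10.3 ± 1.89 at 6 h in Pokkali, against 162 ± 23.4 unstressed, 24131 ± 1481 at 3 h and 6.61 ± 0.831 at 6 h in IR29. The response difference was -6.06 ± 0.14 at 3 h and 3.18 ± 0.14 at 6 h, the second being 4.95 with a pseudocount of 1 and 1.74 with one of 64. The change between these times differed between the cultivars by 9.24 ± 0.14 (adjusted p = 3.2e-19). EP3A, a cysteine protease of germinating grains, read between 5.10 and 5.87 on the 12 arrays of the 6 h comparison, a response difference of 0.014 ± 0.13 (adjusted p = 0.96), and differed by -5.60 ± 0.13 at 3 h.

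Nonabokra, the other salt-tolerant cultivar, was set against the same 6 IR29 arrays, and 16.2% of probe sets passed in that comparison. For DREB1B its response difference was 6.90 ± 0.11, beside 6.03 ± 0.11 for Pokkali. ABA8OX1 gave 2.73 ± 0.092, PBZ1 -5.58 ± 0.098 and CIPK5 -2.61 ± 0.15. RAB16D gave 1.04 ± 0.091 in Nonabokra, beside -5.25 ± 0.091 in Pokkali, and averaged 3407 ± 185 in salt and 67.4 ± 8.72 unstressed there. PM19L1, on the probe set used above, gave 1.55 ± 0.16 and NSHB2 -0.69 ± 0.15, again of the opposite sign to Pokkali. Whether Pokkali and Nonabokra differed from each other in these responses was not tested.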

How the data were processed

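RNA of whole seedlings was labelled by 3′ in vitro transcription and hybridised to Affymetrix rice arrays, per the labels' protocols. The authors deposited linear intensity values from GCOS, per the submitters' processing notes. Probe summary, scaling and detection calls are not given in the sources used here. No further scaling was applied. limma 3.58.1 (R 4.3.3) was fitted to log2(intensity + 16) of all 27 arrays, with 1 mean for each of 9 groups (18 residual degrees of freedom), and p-values were adjusted by Benjamini-Hochberg over 57194 probe sets. Control and reporter probe sets (187 of 57381) were left out. RefSeq names came through the platform's gene IDs. Of the tested probe sets 22436 had 1 gene and 95 several, and each of 17905 genes (2414 named) is read from its probe set of highest mean. Coordinates are not printed, since the array's build is not named.

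Genes named are the 15 largest 2-fold differences each way among named genes with a group mean of 100 or more and array changes that do not overlap between cultivars, up to 4 passing members of each of 47 lists, and a fixed set. Other list members given were chosen after their values were seen. Members and lists were chosen with earlier results of these data known. Replicates are biological, per the labels. The main fit did not pair arrays by replicate number. In none of 6 pairs of groups did all 3 correlations of same-numbered arrays exceed 0.1. Unstressed Pokkali and salted IR29 gave 0.08, 0.21 and 0.08, so this limit cannot exclude pairing. The fit was also run on simulated arrays with independent noise. Known differences were placed in brighter probe sets only, so dim probe sets and effects shared by arrays were not covered. Alternatives were other spreads, scalings, filters, pseudocounts, thresholds, the 12 arrays alone, a replicate block on those 12 arrays and leaving out each array.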

Additional observations from a re-analysis of the deposited data

Results flagged for a closer look

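Of the named genes, 8 moved at least 2-fold in opposite directions in the cultivars, and the difference was tested as the response difference at 6 h. These are DREB1B at 6.03, DREB1G at 4.40, GLP2 at 2.95, AMT1-2 at 2.53, LOX9 at -2.46, CYP71Z7 at -3.43, PBZ1 at -3.71 and CIPK5 at -4.26. Many named genes were picked for a large response difference, which favours such opposite changes. Among all 1482 2-fold calls, 21 higher and 26 lower ones moved at least 2-fold in opposite ways. For 2 named genes the response difference passed 2-fold in opposite directions at 3 h and 6 h. AMY1.1 gave -6.06 at 3 h and 3.18 at 6 h, and the change between these times differed between the cultivars by 9.24 ± 0.14 (limma, adjusted p = 3.2e-19). WRKY76 gave -1.24 at 3 h and 1.64 at 6 h, a difference in that change of 2.88 ± 0.20 (adjusted p = 4.1e-09). Both times share the control arrays.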

How the results depend on the processing

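A pseudocount of 64 left 898 2-fold calls, against 1482, and 572 calls with a smaller level difference in salt, against 937. With a pseudocount of 1 these were 2063 and 1286. The other fits kept both counts, and the 7323 passing probe sets, within 1.5 times. With each array left out in turn, 2-fold calls ran from 1459 to 1493, passing probe sets from 6549 to 7774 and calls with a smaller difference in salt from 925 to 944. Among passing probe sets 46.8% were higher in Pokkali, and 53.6% without replicate 3 of unstressed IR29 (4145 higher and 3594 lower). The 12 arrays of the 4 groups fitted alone gave 1473 2-fold calls, 6061 passing and 935 with a smaller difference in salt. A replicate block, fitted on these 12 arrays, gave 1466, 5641 and 932. Restricting to a group mean of 100 or more, chosen after seeing the data, gave 1250, 5549 and 807. Of 1782 values of named genes under alternatives 1734 kept direction and call, and 48 lost the call. None turned its sign, but other spreads, the filter on dim probe sets, the 12 arrays alone and the block leave the value itself unchanged. Only the call could move there, and many named genes were picked for a large difference. Of the 48, 13 came under the block and 9 with the same 12 arrays without it. No passing named gene moved by over 1.5 times when an array was left out, and 14 of 161 lost the call without some array. Pseudocounts of 1 or 64 moved 27 of 162 named genes by over 1.5 times. Of 141 list medians 5 moved, each with the probe sets of each gene averaged. The number of arrays limits precision, no detection calls were used, and values near the array median have no firm change.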

Other observations

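Genes of other groups also differed. SGR, which starts chlorophyll breakdown, rose in both cultivars, by 1.87 ± 0.058 in Pokkali and 0.70 ± 0.058 in IR29, a response difference of 1.17 ± 0.083 (limma, adjusted p = 2.3e-09). PORA, of chlorophyll synthesis, differed by 1.40 ± 0.17, with a rise in Pokkali and a fall in IR29, and 4 of 9 chlorophyll genes passed, all higher, or 5 higher and 1 lower without replicate 1 of salted IR29. The sugar exporter SWEET15 averaged 705 ± 28.7 in salt and 30.9 ± 4.45 unstressed in Pokkali, against 147 ± 32.1 and 7.08 ± 0.882 in IR29. Its response difference of 1.15 ± 0.14 was 0.30 with a pseudocount of 1 and 1.46 with one of 64, and did not pass with a pseudocount of 1. The cytokinin oxidase CKX4, which breaks the hormone down, differed by 1.37 ± 0.10, and LOG, which activates it, by 1.26 ± 0.10.

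EIL1B, an EIN3-like gene of ethylene signalling, was bright in Pokkali, at 756 ± 76.1 in salt and 1268 ± 104 unstressed, and near the array median in IR29, at 9.20 ± 2.00 and 9.22 ± 0.981. The glutathione S-transferase GST1 changed by -1.44 ± 0.05 in Pokkali and differed by -1.35 ± 0.07 (limma, adjusted p = 2.8e-11), and 4 of 6 such genes passed lower. All 6 had a group mean of 100 or more, and 5549 of all 18437 such probe sets passed in either direction. PCL1, a clock gene, averaged 4244 ± 189.7 in salt and 11073 ± 98.2 unstressed in Pokkali, against 1859.6 ± 371 and 2230.3 ± 87.4 in IR29. Its response difference of -1.10 ± 0.23 was -0.95 without replicate 1 of salted IR29. The raffinose synthase RFS rose in IR29 by 0.98 ± 0.064, changed by -0.32 ± 0.064 in Pokkali and differed by -1.30 ± 0.09.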
